A study of Mus musculus with 13 samples.

Results

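CTCF sites inside coding exons were studied in mouse limb buds at E12.5. A site was a whole-limb wild-type CTCF peak on chromosomes 1 to 19 that overlapped, by at least 1 bp, a CTCF peak of distal and one of proximal wild-type forelimb. Of 38332 such consensus sites, drawn from 42202 whole-limb peaks, 750 (1.96%) had their summit in the coding sequence of a protein-coding gene and more than 1 kb from every transcript start of a protein-coding gene, in GENCODE release M21 on GRCm38. These 750 coding-exon sites lay in 718 genes, of which 32 held a pair of them. A further 348 consensus sites had their summit in coding sequence but closer to a transcript start, and were counted with the promoters.

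By ChIP-seq, the study mapped CTCF together with RAD21 and SMC1, both subunits of cohesin, in wild-type limbs and in limbs homozygous for deletions at the HoxD locus. CTCF was mapped in whole fore- and hindlimbs of B6CBAF1 embryos carrying del(attP-Rel5)d9lac, del(1-13)d9lac or del(8-13)d11lac and in forelimbs of del(8-13)rXII embryos, against whole fore- and hindlimbs of B6CBAF1 wild-type embryos. RAD21 was mapped in whole limbs of del(8-13)rXII and of wild-type B6CBAF1 embryos. In CD1 wild-type embryos CTCF was mapped in distal and proximal forelimb, and RAD21 and SMC1 in distal forelimb. By their names, the del(8-13) alleles lack the genes Hoxd8 to Hoxd13 and del(1-13) lacks Hoxd1 to Hoxd13, and a lac reporter is named in 3 alleles. The labels do not say what sequence the reporters carry or which interval attP-Rel5 covers. Each group had 1 library, so differences between groups have no replicate check and no p-value is given. All intervals are Wilson 95% intervals over sites and cover counting error only. The tissue holds mixed cell types, and peak lists hold no expression values, so the labelled tissue was not checked against marker genes here.

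The zinc finger protein CTCF recognises a long, asymmetric DNA motif and halts cohesin, the ring complex that extrudes chromatin loops. Cohesin accumulates at the side of the motif that faces the incoming loop, so the direction of the motif matters for loop anchoring. In a coding exon the motif also spells amino acids, so the same bases serve as a protein-coding sequence and as a binding site.

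The 19-bp CTCF matrix, built from the 2000 strongest consensus sites outside coding exons, had TGGCCACCAGGGGGCGCCA as the commonest base at each position. Motifs in 9 genes are shown here 5′ to 3′ on the strand of the motif, with 5 flanking bases on each side and the 19 motif bases in capitals. The first is the strongest coding-exon site, the next pair had no cohesin peak, the next 3 include a single-exon neuronal gene, a giant gene and the site that differed most between forelimb parts, and the last 3 are the same place in the Hox10 paralogs.
Gdf15: ggtagCCGCCGGCAGGGGGCGCCGaagcg
Rasl10a: accctCCGCCTGCAGGGGGCGCTGcaccc
H3f3a: tcaccCCTCCAGTAGAGGGCGCACtcttg
Neurog2: gccggTGGCCTCCAGGGGGCGCTCttcac
Dst: caagaCGGCCAGCAGGTGGCGCCAgacac
Fzd7: gatggCTACCGCACGGTGGCGCAGggcac
Hoxd10: cttacTGATCTCTAGGCGGCGCTCgcggg
Hoxc10: cttgcTAATCTCCAGGCGGCGCTCtcgcg
Hoxa10: acggcTGATCTCTAGGCGCCGCTCtcgag
On GRCm38 these printed bases are chr8:70629887-70629915 (minus strand) in Gdf15, chr11:5060015-5060043 (plus) in Rasl10a, chr1:180811818-180811846 (plus) in H3f3a, chr3:127634257-127634285 (plus) in Neurog2, chr1:34218498-34218526 (plus) in Dst and chr1:59483917-59483945 (plus) in Fzd7. In the Hox genes they are chr2:74694220-74694248 (minus) in Hoxd10, chr15:102970927-102970955 (minus) in Hoxc10 and chr6:52232626-52232654 (plus) in Hoxa10, a gene of the minus strand. All motifs shown lie wholly inside a coding exon. The motif runs with the gene in Gdf15, Rasl10a, Neurog2, Dst and Fzd7, and against it in H3f3a and the Hox genes.

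Coding-exon sites were of much the same strength as other sites. Strength is given as the authors' −log10 q of the peak, which depends on read depth. Values of different lists are set side by side as a description, since the depths of the libraries are unknown. The median was 20.99 for the 750 coding-exon sites (quartiles 9.01 and 46.7), against 20.4 for the 37582 other consensus sites (8.73 and 45.3). Per Mb of sequence the coding exons held more sites than introns or intergenic DNA. Their density was 26.5 sites per Mb over 28.3 Mb of coding sequence beyond 1 kb from a start, against 24.8 in other exons, 16.9 in introns, 12.1 in intergenic DNA and 66.2 within 1 kb of a start. That coding sequence makes up 1.15% of the autosomes, and 1.96% of the consensus sites lay in it. The 200 bp around the summit were richer in G and C, with a median of 57.5% at coding-exon sites against 48.5% at all other sites combined. Promoter sites, part of the other sites, had a median of 60%. Of the coding bases in which a site could lie, 51.3% were G or C.

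The strongest sites lay in genes of varied function and were called in every CTCF list. The site in exon 2 of 2 coding exons of Gdf15, which encodes a stress-induced cytokine of the TGF-beta superfamily, had a −log10 q of 221 in del(attP-Rel5)d9lac limbs, 303 in del(8-13)d11lac, 31.1 in del(8-13)rXII and 179.6 in del(1-13)d9lac, against 209 in wild-type whole limbs. In the CD1 wild type it had 279 in distal and 304 in proximal forelimb. Values in del(8-13)rXII were low throughout that list, whose autosomal median was 7.15 over all peaks, against 16.3 to 31.0 in the other alleles and 17.3 in the wild type. After Gdf15 came March9, a membrane-bound ubiquitin ligase (154 in wild-type whole limbs), Pgls, an enzyme of the pentose phosphate pathway (149), and Tradd, an adaptor of the TNF receptor (145). Numa1, a protein of the spindle poles, had 139, Arhgef18, a guanine nucleotide exchange factor, 138, and Spi1, the myeloid transcription factor PU.1, 129. Srcin1, a regulator of Src signalling, and Epg5, an autophagy factor, had 126 each, and Mroh6 had 125.
Of the 50 strongest coding-exon sites, a number chosen after the values were seen, all 50 were called in all 4 alleles, 49 had a motif within 50 bp and 49 had a whole-limb RAD21 peak. The site without a motif was that of Arhgef18, whose best match scored 2.12 bits against a threshold of 6.28 bits. The site without RAD21 was that of Rasl10a. Strong sites elsewhere were much alike. Among the 9024 other sites of 46.6 and over, the range of the strongest quartile of coding-exon sites, 99.8% or more were called in each allele. Of those other sites 95.6% had a motif and 90.3% had whole-limb RAD21. The coding-exon sites of that quartile had them at 94.15% and 91.5%.

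**Figure D1:**
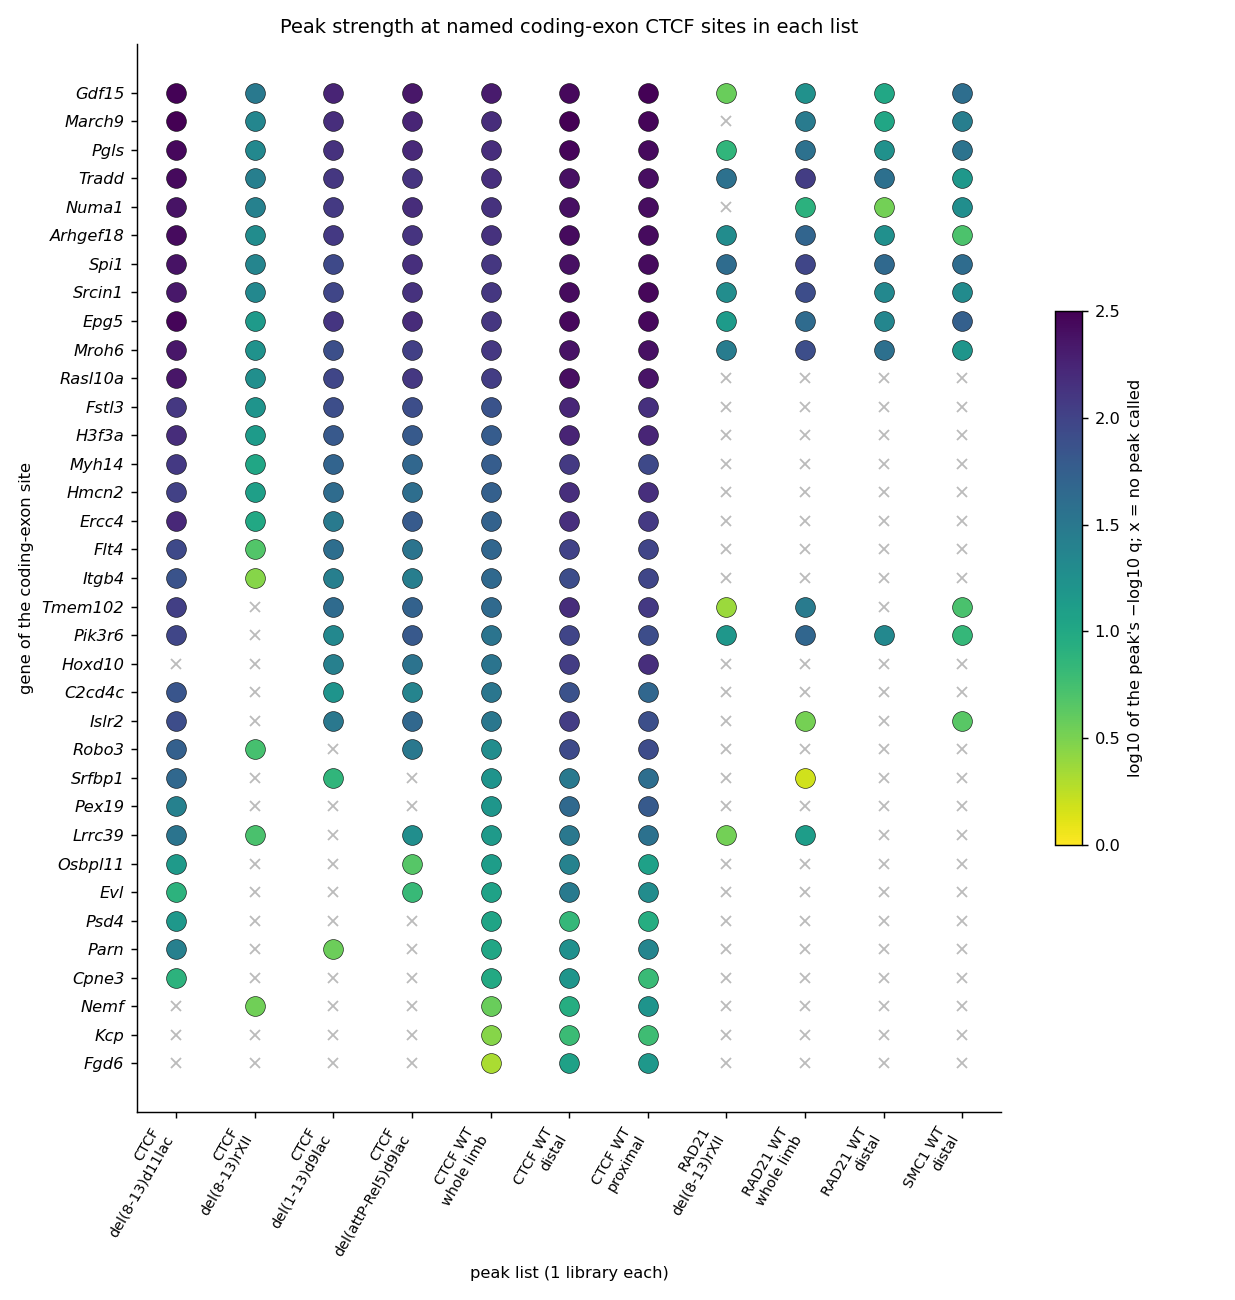
Strength of coding-exon CTCF sites (rows, by gene) in each of 11 peak lists (columns, 1 library each), with mutant lists left of the wild-type ones of the same protein; colour is the log10 of the authors' −log10 q and a cross marks no peak. The 10 strongest sites, from Gdf15 to Mroh6, were called in all CTCF and all wild-type cohesin lists, the next 8 in no cohesin list, and the rest were missing in at least 1 allele.

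The 318 coding-exon sites with no cohesin peak in any of the 3 wild-type lists made up 42.4% of the 750, against 36.4% of the other sites. Among the latter the share was 39.7% in promoters, 39.6% in introns, 32.65% in other exons and 33.3% in intergenic DNA. The strongest of the 318 was in the last of 3 coding exons of Rasl10a, a Ras-like GTPase. Its −log10 q was 113.5 in wild-type whole limbs, and 255 in distal and 236 in proximal forelimb. Fstl3, which binds activins, followed with 72.8, and H3f3a, one of the genes of histone H3.3, with 60.7. Myh14, a non-muscle myosin heavy chain, had 58.6, Hmcn2, an extracellular matrix protein of the hemicentin family, 55.7, and Ercc4, a DNA repair nuclease, 52.9. Flt4, a receptor of lymphatic growth factors, had 48.8 and Itgb4, an integrin chain of hemidesmosomes, 45.1. All 8 were called in all 4 alleles, and all 8 had a motif.

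Cohesin was called at fewer coding-exon sites than at all other sites combined, and at about as many as in promoters. Whole-limb RAD21 was called at 380 of the 750 (50.7%, 47.1 to 54.2), against 56.2% of the other sites and 56.1% of all consensus sites. Distal RAD21 was called at 223 (29.7%, 26.6 to 33.1), against 39.4% of the others and 39.3% of all. Distal SMC1 was called at 350 (46.7%, 43.1 to 50.3), against 53.0% of the others and 52.8% of all. The other sites, weighted to the same distribution of −log10 q in 20 equally filled bins, gave 57.0%, 40.3% and 53.9% for the same 3 lists, above the interval of the coding-exon sites each time. All 3 lists had a peak at 201 coding-exon sites (26.8%), against 35.9% of the others. The whole-limb RAD21 peaks themselves were weaker, with a median −log10 q of 20.3 at coding-exon sites against 30.8 at other sites. Promoter sites, part of the other sites, had whole-limb RAD21 at 51.9%, distal RAD21 at 28.3% and distal SMC1 at 45.0%, with a median RAD21 −log10 q of 17.3. Introns had 52.9%, 36.8% and 50.8% for the same 3 lists.
GC content moved with this difference. When other sites were weighted by strength and GC content together, a comparison added after the values were seen, they gave 54.9% for whole-limb RAD21, 35.0% for distal RAD21 and 49.3% for distal SMC1. The last value lies within the interval of the coding-exon sites, and the first 2 lie above theirs. Without promoter sites the same weighting gave 57.5%, 39.1% and 51.5%, each above the interval. The part of GC content in the difference was otherwise not tested.
For whole-limb RAD21 and SMC1 the difference lay in the middle of the range of strength, and for distal RAD21 it reached into the strongest sites. In quartile 2 of the coding-exon sites' −log10 q, 33.2% had whole-limb RAD21, against 42.7% of other sites in the same range, and in quartile 3 58.3%, against 73.5%. In the weakest quartile 19.7% of coding-exon sites had it, against 20.7% of other sites, and in the strongest 91.5% of coding-exon sites, against 90.3% of other sites. Distal SMC1 was called at 59.4% of coding-exon sites, against 72.7% of other sites, in quartile 3, and at 91.5% of coding-exon sites, against 91.0% of other sites, in the strongest. In the strongest quartile distal RAD21 was called at 69.1% of coding-exon sites, against 77.8% of other sites.

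**Figure D2:**
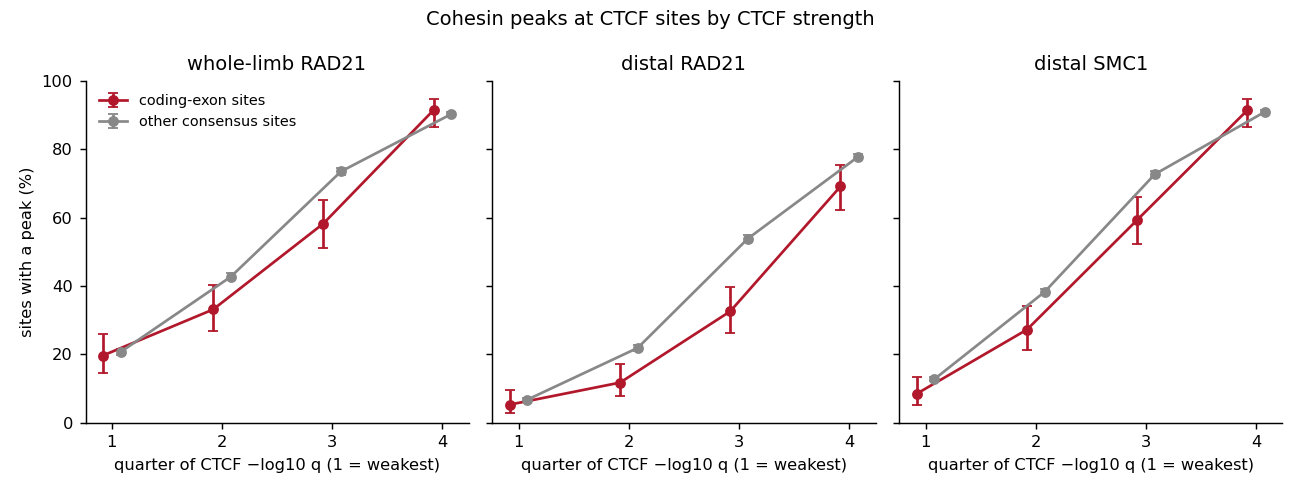
Share of CTCF sites with a cohesin peak (%) in quartiles of whole-limb CTCF −log10 q, for the 750 coding-exon sites and the other consensus sites; bars are Wilson 95% intervals. For whole-limb RAD21 the curves are apart in quartile 2 (33.2% of coding-exon sites against 42.7% of other sites). They are further apart in quartile 3 (58.3% against 73.5%) and meet in the strongest (91.5% against 90.3%).

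RAD21 lay mostly on the 3′ side of the motif, while SMC1 was close to evenly placed. Only cohesin summits within 200 bp of the motif's centre were counted, in every list and set. The whole-limb RAD21 summit lay 3′ of that centre at 80.8% of 338 such coding-exon sites (76.2 to 84.6), with a median offset of 18 bp. In introns the share was 88.5% and in intergenic DNA 89.5%, both above that interval, and the median offsets were 20 and 21 bp. In promoters it was 78.7%. Distal RAD21 lay 3′ at 83.3% of 210 coding-exon sites (77.7 to 87.8). Its shares of 85.6% in introns and 86.7% in intergenic DNA were both within that interval. Distal SMC1 lay 3′ at 55.9% of 322 coding-exon sites (50.4 to 61.2), with a median offset of 3 bp. For whole-limb RAD21 the 3′ side was favoured alike in both directions of the gene, at 80.4% of sites with a sense motif and 81.2% of those with an antisense motif.

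The motif was about as frequent at coding-exon sites as elsewhere. A match within 50 bp of the summit passed the score that 5% of control windows at 2 kb passed at 633 coding-exon sites (84.4%, 81.6 to 86.8), against 84.9% of the other sites. Of these motifs 542 (85.6%) lay wholly inside the exon. Sites without a motif had RAD21 less often, at 32.5% of 117, and their median −log10 q was 10.4.
The motif ran with the gene at 289 coding-exon sites and against it at 344, so that 45.7% were sense (41.8 to 49.6). In introns 49.5% of 12383 motifs were sense. Whole-limb RAD21 was called at 58.5% of the sense sites (52.7 to 64.0) and 50.3% of the antisense sites (45.0 to 55.5), intervals that overlap. Median CTCF strength differed the same way, at 27.4 for sense and 22.8 for antisense sites. In introns the order was the opposite, with 53.7% of sense and 59.7% of antisense sites, and there median strength was 20.2 for sense and 23.7 for antisense sites. The part of strength in these differences was not tested.

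Motif matches in coding exons of 13 bits and over were bound less often than equally scored matches in introns and other exons. Matches in soft-masked repeats were left out. Of matches scoring 13 to 15 bits, 12.3% of 933 in coding exons lay in a consensus site (10.4 to 14.6), against 20.3% in introns and 21.4% in other exons. At 15 to 17 bits the share was 32.7% of 394 (28.3 to 37.5), against 48.4% in introns and 53.2% in other exons. At 17 bits and over it was 75.5% of 269 (70.0 to 80.2), against 85.2% in introns and 88.5% in other exons. At 11 to 13 bits the share was 6.04%, against 6.27% in introns and 6.69% in other exons. The matrix was trained outside coding exons, and no value for nucleosomes or DNA methylation was used here.

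**Figure D3:**
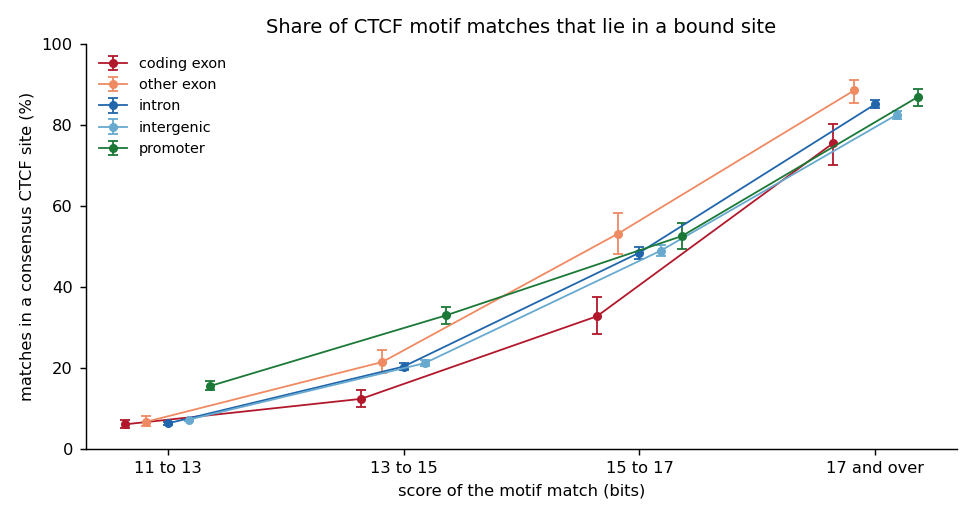
Share of CTCF motif matches that lie in a consensus site (%), by the score of the match in bits and by where the match lies; bars are Wilson 95% intervals. Coding exons are lowest at 13 bits and over, for example 32.7% at 15 to 17 bits against 48.4% in introns.

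Motifs in coding-exon sites were unevenly spread over the reading frame. Codon positions here are those of the motif's first base in the direction of the gene. Of 234 sense motifs inside an exon, 127 (54.3%) began at codon position 3, 77 at position 1 and 30 (12.8%) at position 2. Of 307 antisense motifs with a frame, 149 (48.5%) began at position 1, 77 at position 2 and 81 at position 3. Matches in coding sequence of 11 bits or more that lay in no whole-limb peak had nearly the same spread. The limit for the motifs above was lower, at 6.28 bits. Of 1401 sense matches in no peak, 52.6% began at position 3 and 14.5% at position 2, and of 1500 antisense ones, 45.8% began at position 1. At 11 bits or more, 52.9% of 227 sense matches in a consensus site began at position 3. Of 299 antisense ones, 46.5% began at position 1. The intervals of bound and unbound matches overlapped at each of the 6 positions. Neurog2, Rasl10a and Fzd7 carry a sense motif that begins at codon position 3, and Hoxd10 and Hoxc10 an antisense motif that begins at position 1. The shares with RAD21 ran from 56.7% to 59.7% over the 3 frames of sense motifs and from 50.6% to 51.0% over those of antisense motifs.

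**Figure D4:**
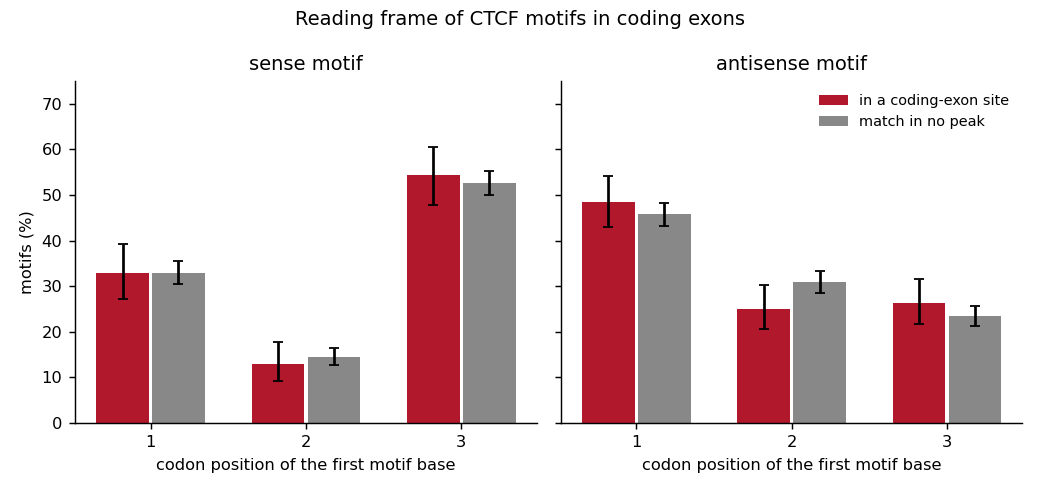
Share of CTCF motifs (%) whose first base in the direction of the gene falls on codon position 1, 2 or 3, for coding-exon sites and for coding matches in no whole-limb peak; bars carry Wilson 95% intervals. Position 3 leads for sense motifs (54.3% bound, 52.6% unbound) and position 1 for antisense motifs (48.5% bound, 45.8% unbound).

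Within genes the sites leaned towards the end of the coding sequence. The last or only coding exon held 223 of the 750 sites (29.7%, 26.6 to 33.1), while 21.2% of the coding bases in which a site could lie are in such exons. The last 20% of the coding sequence held 27.6% of the sites and 22.3% of those bases, and the first 20% held 11.6% of the sites and 14.7% of the bases. Internal exons held 64.8% of the sites and 74.8% of the bases. Rasl10a (97.7% along the coding sequence), Hmcn2 (98.4%) and Mroh6 (92.8%) are strong sites at the end of a gene. The median distance to the nearest other consensus site was 8.97 kb for coding-exon sites and 12.8 kb for the others. Among the others it was 9.72 kb in other exons, 11.4 kb in promoters, 13.25 kb in introns and 13.0 kb in intergenic DNA.

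The share of coding-exon sites called again ran from 73.5% to 99.5% over the 4 deletion alleles. In del(8-13)d11lac 746 of the 750 had a peak (99.5%, 98.6 to 99.8), against 98.7% of the other sites and 98.8% of all. In del(1-13)d9lac 661 had one (88.1%, 85.6 to 90.3), against 87.4% of the others and 87.4% of all. In del(attP-Rel5)d9lac 688 had one (91.7%, 89.5 to 93.5), against 90.5% of the others and 90.5% of all. The other sites of the same strength gave 98.9%, 88.0% and 91.1%, each within the interval of the coding-exon sites.
In del(8-13)rXII 551 had a peak (73.5%, 70.2 to 76.5), against 77.3% of the others and 77.2% of all. The share of coding-exon sites was 37.3% with a limit of 10 on the −log10 q of every list and 85.7% with lists of equal length. In the same order, the gaps to other sites of the same strength were -8.45 and -3.91 points. With the full lists, other sites of the same strength gave 78.2%, above the interval, and of the same strength and GC content 74.1%, within it. That library was made by ChIPmentation from forelimbs alone, so genotype, assay and tissue cannot be told apart.
All 4 alleles kept 533 coding-exon sites (71.1%), against 72.8% of the others, and 2 of them were kept in none. Strength went with the number of alleles, with medians of 5.02 for sites kept in 1 allele, 6.26 in 2, 9.15 in 3 and 33.8 in 4. Of 386 coding-exon sites whose −log10 q was 20 or more, none was missing in either d9lac allele. In del(8-13)rXII 12 (3.11%) were missing, and in del(8-13)d11lac 1 (0.259%). The latter was the site of Hoxd10, which was also among the 12. By their names both alleles lack Hoxd10, so its absence is no measure of retention. Of 19010 other sites at that strength, 1.35% were missing in del(8-13)rXII and 0.037% in del(8-13)d11lac. In del(1-13)d9lac 0.095% of them were missing, and in del(attP-Rel5)d9lac 0.074%.

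**Figure D5:**
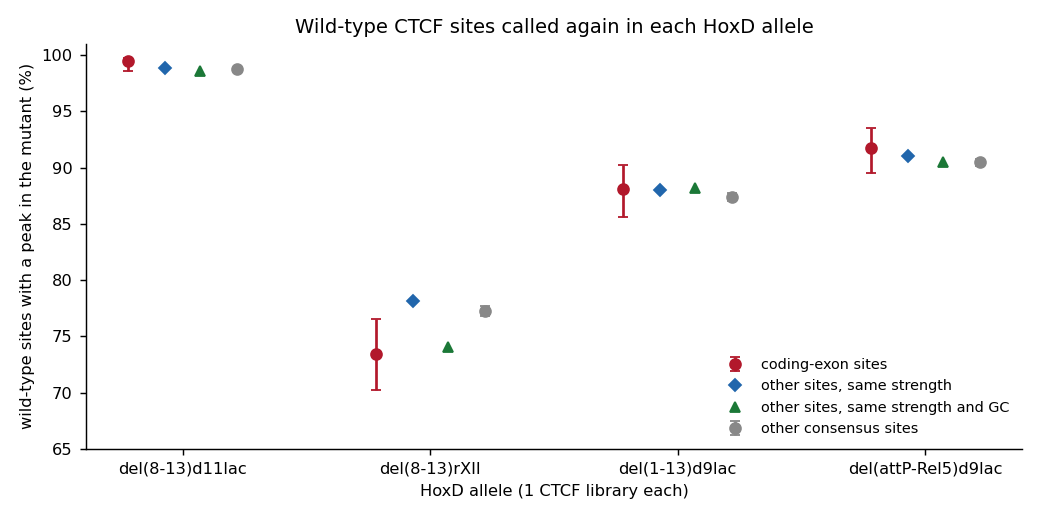
Share of wild-type CTCF sites with a peak in each of 4 HoxD alleles (%, axis from 65), for the 750 coding-exon sites, for other sites weighted to the same strength or to the same strength and GC content, and for all other sites; bars are Wilson 95% intervals. Only in del(8-13)rXII do the other sites of the same strength (78.2%) lie above the interval of the coding-exon sites (73.5%).

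The 4 sites missing in del(8-13)d11lac were in Hoxd10 (wild-type −log10 q 34.4), inside the deleted interval, and the weak sites of Nemf (3.70), a ribosome quality control factor, Kcp (2.84), a secreted BMP regulator, and Fgd6 (2.07), a Cdc42 exchange factor. Kcp and Fgd6 were the pair missing in all 4 alleles. The Kcp site holds a motif of 18.5 bits, beside its low strength. The median score was 15.5 bits over the 633 coding-exon sites with a motif.
In del(8-13)rXII the strongest missing sites were in Tmem102 (44.4), Pik3r6, a regulatory subunit of PI3-kinase (34.8), Hoxd10 (34.4), C2cd4c (33.0) and Islr2 (32.0). Tmem102 was called in the other alleles, with 53.4 in del(attP-Rel5)d9lac limbs, 109.7 in del(8-13)d11lac and 43.3 in del(1-13)d9lac.
In del(1-13)d9lac they were in Robo3, an axon guidance receptor (19.03), Pex19, which imports peroxisomal membrane proteins (15.2), Lrrc39 (14.1), Osbpl11, a lipid transfer protein (13.2), and Evl, an actin regulator (11.5). In del(attP-Rel5)d9lac they were in Srfbp1 (16.0), Pex19 (15.2), Psd4 (10.9), Parn, a poly(A) ribonuclease (10.4), and Cpne3 (9.82). Pex19 was thus called in 1 allele, del(8-13)d11lac, with 26.0.

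RAD21 at coding-exon sites was called again in del(8-13)rXII less often than at all other sites combined, at a share close to that in promoters. Of the 380 with wild-type whole-limb RAD21, 194 had a RAD21 peak in del(8-13)rXII (51.1%, 46.0 to 56.0), against 66.2% of the other such sites and 66% of all. In promoters 49.1% had one. Other sites weighted by the strength of their wild-type RAD21 peak gave 55.2%, within the interval. The RAD21 lists held 15549 autosomal peaks in del(8-13)rXII and 32465 in the wild type. With lists of equal length the share at coding-exon sites was 79.5%. The share at other sites was not computed with that setting, so 79.5% cannot be set against the values above. Tradd kept RAD21 with a −log10 q of 37.6 in del(8-13)rXII, against 113 in wild-type whole limbs. March9 and Numa1 had no RAD21 peak in del(8-13)rXII, against 29.6 and 8.09 in the wild type.

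The Hox clusters held 3 coding-exon sites, in Hoxd10, Hoxc10 and Hoxb3, none with RAD21 and 1, in Hoxc10, with distal SMC1 (4.26). Hox genes encode homeodomain factors that pattern the body axis and limbs, and those of the Hox10 group are known for patterning the lumbar vertebrae and the upper hindlimb. Hoxd10 lies in the HoxD cluster and Hoxc10 in the HoxC cluster, and their sites sit at the same place, 122 bases before the end of a last coding exon of 275 bp. Hoxc10 matches Hoxd10 at 24 of the 29 printed bases and 17 of the 19 motif bases. The changes are G2A and T8C, with Hoxd10's base first and positions counted from 1 at the 5′ end of the motif. The scores were 12.1 bits in Hoxd10 and 11.2 bits in Hoxc10.
The Hoxd10 site had 34.95 in del(attP-Rel5)d9lac, no peak in either del(8-13) allele and 26.3 in del(1-13)d9lac, against 34.4 in wild-type whole limbs. In wild-type forelimb it had 115 in the distal and 149 in the proximal part. A peak in del(1-13)d9lac stands against a deletion that by its name covers Hoxd10, and the sequence carried by the d9lac reporter is not given in the labels. The Hoxc10 site, on another chromosome, had 11.5 in del(8-13)d11lac and no peak in the other 3 alleles, against 8.21 in wild-type whole limbs and 22.5 and 26.6 in distal and proximal forelimb.
At the same place in Hoxa10, the remaining Hox10 gene, 18 of the 19 motif bases match Hoxd10. The change G14C is the only one, and the score was 7.20 bits. None of the 7 CTCF lists had a peak in that exon. In a comparison added after the values were seen, 39 Hox genes were measured at the same distance from the last coding exon's end. Only these 3 Hox10 genes passed the motif threshold there. The distance was taken from the Hoxd10 motif and is shared by Hoxc10, so the passing of both was fixed in advance. The exons were not aligned, so the scores of the other genes there cannot show whether their exons lack a motif. The Hoxb3 site was weak (5.41), with no motif within 50 bp of its summit, and was called in 3 alleles. The best match anywhere in its exon of 851 bp scored 20.4 bits.

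Among coding-exon sites, which by definition had a peak in both forelimb parts, strength was alike in these parts, with 1 exception. Sites called in only 1 part were left out beforehand, so the likeness was in part fixed by the selection. The ratio of distal to proximal −log10 q had a median of 1.02 over coding-exon sites (quartiles 0.880 and 1.17). The inverse ratio passed 4 at no coding-exon site and at 54 other sites. The ratio itself passed 4 at 1 coding-exon site of 750, against 83 of 37582 other sites. That site lies in the single coding exon of Fzd7, a receptor for Wnt ligands. Its −log10 q was 126 in distal and 1.54 in proximal forelimb, at fold enrichments of 12.9 and 1.96, and the next highest ratio of a coding-exon site was 3.34. It had 54.6 in del(attP-Rel5)d9lac limbs, 122 in del(8-13)d11lac, 12.2 in del(8-13)rXII and 33.3 in del(1-13)d9lac, against 55.8 in wild-type whole limbs. Distal RAD21 (6.76) and distal SMC1 (15.9) were called there, and whole-limb RAD21 had 69.0.
Of 10 autosomal frizzled genes, a family picked after these values were seen, 3 held 5 coding-exon sites. Fzd5 and Fzd8 had a pair each, within single coding exons. The stronger Fzd5 site had 56.1 in distal and 62.5 in proximal forelimb, and the stronger Fzd8 site 93.9 and 83.0, and of the 5 only the Fzd7 site had a ratio over 4.

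In the limb patterning lists 4 genes held a coding-exon site. Beside Hoxd10, the list of distal limb genes held Tbx3, a T-box factor (4.55), so 2 of 30 genes had a site where 1.04 sites fall at their share of coding bases. The proximal list of 17 genes held 1, in Irx5, a homeobox factor (8.996), against 0.418 at its share, and the limb identity list of 9 genes held 1, in Hoxc10, against 0.175. Cartilage and bone genes held 1 against 1.39, and signalling genes 4 against 3.92. Among 23 cartilage and bone genes Sox6, a chondrocyte factor, had one (34.6), which was kept in all 4 alleles and had SMC1 (4.88) but no RAD21. Among 34 signalling receptors and ligands Notch3 (64.2), Fzd7, Dll4, a Notch ligand (31.2), and Fat4, an atypical cadherin (28.4), had one each, and all 4 were kept in all alleles.
Genes of other tissues also carried sites. Neurog2, a proneural factor, was the 1 neural gene with a site (92.4), against 0.619 at the list's share. Spi1 and Vwf, which encodes von Willebrand factor (71.5), were those of the endothelium and blood list, 2 sites against 0.944. Of 19 muscle genes, Ttn, the giant sarcomere protein, had 2 sites (13.7 and 10.6), and Ryr1, the calcium release channel (10.5), and Myog, a myogenic factor (7.44), had 1 each, so 4 sites stand against 4.33. None of 13 surface ectoderm genes had one, where 0.690 fall at their share. Of the chromatin and cohesin list, Kmt2a, a histone methyltransferase (38.9), and Dnmt3a, a DNA methyltransferase (8.62), had one each, 2 against 4.32, and of the imprinted genes Rtl1 (4.32), 1 against 1.16.

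Some gene families held fewer or more sites than fall at their share of coding bases, and others about as many. Zinc finger genes by name make up 3.13% of the coding bases and held 8 sites, where 23.5 fall at that share. Solute carriers held 8, where 14.6 fall at their share. Potassium channel genes held 10 sites in 9 genes, where 3.33 fall at their share, among them Kcnj10, Kcna1 and Kcnn4. Keratins held 6, against 1.51 at their share, and the 3 Hox sites stand against 0.386. Clustered protocadherins, whose alternative first exons are known for CTCF sites, held 2 coding-exon sites beyond 1 kb from a start, against 2.64. Giant genes with a long coding sequence held 10 sites in 7 genes, against 10.6. Collagens held 4 against 4.92, dyneins 4 against 5.11 and laminins 2 against 1.875. Myosin heavy chains held 2 against 2.12, and ADAM and ADAMTS proteases 5 against 4.10. No test was made of these counts, and the gene lists and name patterns were written with earlier results of these data known.

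The 32 genes with a pair of sites had them between 464 and 203688 bp apart, with a median of 6608.5 bp. In Epg5 both sites were strong (126 and 49.8), had sense motifs and kept RAD21 in del(8-13)rXII. In Dst, a giant linker of the cytoskeleton, both motifs were sense and of high score (23.9 and 21.1 bits), but the stronger site (76.6) had whole-limb RAD21 (124) and the weaker (16.9) had no cohesin peak. In Anxa11, a calcium-dependent membrane-binding protein, the stronger site (109.95) had RAD21 (29.9) and the weaker (27.9) had no cohesin. In Tril, a regulator of Toll-like receptors, 2 sites of like strength (42.4 and 38.9) lay 544 bp apart in 1 exon, with motifs in opposite directions.
Sites just beyond 1 kb from a start were those of Mylpf (1002 bp, 27.6), Mc3r (1019 bp, 8.33) and Etv2 (1021 bp, 38.5), while Erh (999 bp, 27.6), Nefh (993 bp, 10.8) and Hcrt (971 bp, 42.8) fell just inside and were left out. All 6 were called in all 4 alleles.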

How the data were processed

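The deposited files are peak lists, 1 for each of 11 samples used here; 2 H3K27ac samples were not used. Per the submitters' processing notes, cutadapt, Bowtie2 and MACS2 were used with build mm10; versions are not given in the sources used here. Each list holds, as deposited by the authors, a score of 10 times −log10 q, the fold enrichment as a ratio to background, and for each summit a −log10 q and a −log10 p. Read depth is unknown, so strengths were ranked within a list, and values set across lists are descriptions.

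Rows of the same interval were merged, keeping the strongest summit. Overlap was at least 1 bp. The annotation was GENCODE M21 on GRCm38.p6. A CTCF matrix was trained on 2000 summits outside coding exons, and the threshold was passed by 5% of control windows 2 kb away. Shares of other sites were weighted to the coding-exon sites' −log10 q in 20 bins, or 10 bins with 5 of GC content. Intervals are Wilson 95%. The work used Python 3.11.15, numpy 2.4.6, pandas 2.3.3 and scipy 1.17.1, and the site search, weighting and motif scan were tested on simulated data.

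The members and lists were chosen with earlier results of these data known. Genes were named by a rule: the 10 strongest sites, the 8 strongest without cohesin, the 5 strongest missing in each allele, up to 10 genes with 2 sites, Hox sites, up to 4 per gene list and the 3 on each side of the 1 kb limit, passing over predicted genes. The 50 strongest sites, the frizzled family and the gene families' examples were picked later. Alternatives were a −log10 q of at least 10, 50% coverage, summits within 200 bp, gene starts only, basic and CCDS transcripts, lists of equal length, and other motif and GC settings.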

Additional observations from a re-analysis of the deposited data

How the results depend on the processing

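Of 116 alternative values 85 stayed within the counting interval of the value reported, or within 1.5 times it for counts, and 31 moved outside it. A reversal was defined only for the gaps to other sites of the same strength, and none of these gaps changed sign. No paired analysis was possible because each group had 1 library, and leaving out a replicate could not be done. With a limit of 10 on the −log10 q of every list the median strength was 34.3, distal RAD21 22.4%, distal SMC1 35.0%, sites kept in del(8-13)rXII 37.3% and in del(attP-Rel5)d9lac 94.5%, RAD21 kept 45.6% and the motif share 88.9%; this limit is not equal across lists. The gaps to other sites of the same strength were then -11.3 points for whole-limb RAD21, -15.0 for distal RAD21 and -8.45 for sites kept in del(8-13)rXII, against -6.34, -10.6 and -4.70 in the report. With 50% of the interval covered, distal RAD21 was 25.5%, distal SMC1 39.5% and sites kept in del(8-13)rXII 61.7%. With lists of equal length, whole-limb RAD21 was 36.2%, distal RAD21 34.5% and distal SMC1 38.3%, the gaps -12.2 for whole-limb RAD21 and -11.0 for distal SMC1, and the sites kept 95.2% in del(attP-Rel5)d9lac limbs, 96.2% in del(8-13)d11lac, 85.7% in del(8-13)rXII and 95.7% in del(1-13)d9lac, with RAD21 kept at 79.5%. Gene starts alone gave coding-exon sites as 2.24% of all, and basic and CCDS transcripts 1.82%. The stricter motif score left 70.1% with a motif, and 100 bp around the summit gave 59.0% GC. With strength and GC content together, weighting added after the values were seen, the gaps were -5.27 for distal RAD21, -2.59 for distal SMC1 and -0.616 for sites kept in del(8-13)rXII (-1.10 without promoters). The cause of these shifts was not tested beyond the settings themselves.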

Other observations

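Peaks in coding exons that overlapped no wild-type CTCF peak were few in the alleles. They numbered 14 of 780 coding-exon peaks (1.79%) in del(attP-Rel5)d9lac, 24 of 781 (3.07%) in del(1-13)d9lac, 59 of 1090 (5.41%) in del(8-13)d11lac and 11 of 599 (1.84%) in del(8-13)rXII. Of all peaks of the same lists, in the same order, 2.88%, 5.15%, 7.06% and 4.60% overlapped no wild-type CTCF peak. The median −log10 q of the new coding-exon peaks ran from 3.04 to 4.99.

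By chromosome, coding-exon sites were the highest share of consensus sites on chromosome 19, with 33 of 1142, and the lowest on chromosome 16, with 16 of 1300.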
